A study of Mus musculus with 15 samples.

Results

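Integrins and laminins, the receptors and the sheet-forming ligands by which cells hold on to the extracellular matrix, were examined in adult neural stem cells (aNSCs) with and without the histone acetyltransferase cofactor Trrap. The set was every protein-coding gene whose symbol is Itga, Itgb, Lama, Lamb or Lamc followed by a digit or a final letter, and integrin-binding proteins such as Itgb1bp1 were left out. It held 38 of the 53801 genes counted. Of these, 27 were integrin chains (18 alpha and 9 beta) and 11 were laminin chains (5 alpha, 3 beta and 3 gamma).

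The cells were primary aNSCs from the subventricular zone of 2-month-old C57BL6/J-129sv mice, grown in suspension. All mice carried the Rosa26-CreERT2 tg transgene, whose Cre recombinase is made in most cell types and enters the nucleus when 4-hydroxytamoxifen (4-OHT) binds it. The 15 libraries formed 3 groups of 5. Trrap Fl/+ without treatment and Trrap Fl/+ with 4-OHT were cultures of the same mice, 19, 24, 26, 35 and 36. The third group was Trrap Fl/Fl with 4-OHT, from mice 27, 28, 29, 37 and 39. The labels give 5 days of treatment, while the study's methods describe a shorter exposure followed by fresh medium. Since Fl/+ cells also carry a floxed allele, 4-OHT treatment, Cre activity and loss of that allele cannot be told apart in them. No untreated Fl/Fl library was analysed here. Trrap deletion therefore cannot be told apart from earlier differences between the Fl/Fl and the Fl/+ mice or their cultures.

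Integrins are heterodimers of an alpha and a beta chain that span the plasma membrane and link matrix to actin. Laminins are heterotrimers of an alpha, a beta and a gamma chain and are the main adhesive proteins of basement membranes. In the subventricular zone, stem cells touch laminin-rich matrix around blood vessels, and the laminin receptor chain made by Itga6 is known for its part in that contact. Itgb1 makes the beta chain that most alpha chains share.

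Each library held 25.7 M to 32.2 M (mega) assigned counts, and levels are given as counts per M counts of the library (CPM), with library sizes scaled by TMM. A floor of 3 counts corresponds to 0.0932 to 0.117 CPM on library sizes before TMM scaling and covers counting error only. Trrap itself was at 190 ± 14.3 CPM (SD, n = 5) in untreated Fl/+, 164 ± 26.4 in Fl/+ 4-OHT and 104 ± 24.2 in Fl/Fl 4-OHT cultures. Its log2 fold change was -0.64 ± 0.16 (SE) between the 4-OHT groups, with an adjusted p of 0.0115 (exact two-sided permutation p = 0.0159 over 252 arrangements). The ranges overlapped through Fl/Fl 29, at 142 CPM, and the counts include reads outside the removed segment. The library labelled female Fl/Fl 39 held 0.313 CPM of Xist and 213 CPM of 4 Y-linked genes, as cultures labelled male did. Fl/Fl 37, with 335 CPM of Xist, was then the only Fl/Fl library with the RNA of a female. Both cultures of mouse 36, labelled male, held Y-linked RNA (217 and 205 CPM) together with Xist at 5.89 CPM untreated and 74.7 CPM with 4-OHT. Summed markers of 10 neural stem cell genes ranged from 5981 to 10659 CPM over all libraries and each of the 10 was detected. In this bulk RNA, fewer cells of a type and less RNA per cell cannot be told apart.

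Promoter sequence is shown because the study concerns control of transcription by Trrap through Sp1, whose known element is the GC box. The RefSeq table for GRCm38.p6 held 27 promoters of 24 member genes, Lama3 left aside, and those without an entry included Itga6, Itga7, Itgad, Itgae, Itgal, Itgb2, Itgb3, Itgb4, Lama1, Lama4, Lamc1 and Lamc3. The letters GGGCGG, or CCGCCC for the other strand, were searched in the 250 bases before each start. They occurred in 9 of 27 member promoters (33.3%) and in 10756 of all 32851 promoters (32.7%). The share was thus close to that of all genes. Given here in lower case, with GC boxes in capitals, are members whose window ends at the base before the annotated gene start. Itga4 fell after Trrap deletion, and the Lama5 window had the most GC boxes of the 27 searched. Itga2 and Itga1 are neighbours that rose together with 4-OHT, as described further on.
Itga4 (chr2:79255176-79255425, plus strand): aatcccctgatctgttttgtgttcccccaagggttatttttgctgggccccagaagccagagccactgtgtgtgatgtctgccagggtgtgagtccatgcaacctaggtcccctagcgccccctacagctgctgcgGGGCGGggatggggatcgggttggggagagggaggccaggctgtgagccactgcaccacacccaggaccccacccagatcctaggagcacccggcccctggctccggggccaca
Lama5 (chr2:180225860-180226109, minus strand): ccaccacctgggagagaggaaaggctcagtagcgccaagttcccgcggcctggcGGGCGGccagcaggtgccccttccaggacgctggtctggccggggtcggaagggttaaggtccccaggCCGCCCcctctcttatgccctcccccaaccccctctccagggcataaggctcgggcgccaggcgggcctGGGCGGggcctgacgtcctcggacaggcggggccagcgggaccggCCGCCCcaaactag
Itga2 (chr13:114932101-114932350, minus strand): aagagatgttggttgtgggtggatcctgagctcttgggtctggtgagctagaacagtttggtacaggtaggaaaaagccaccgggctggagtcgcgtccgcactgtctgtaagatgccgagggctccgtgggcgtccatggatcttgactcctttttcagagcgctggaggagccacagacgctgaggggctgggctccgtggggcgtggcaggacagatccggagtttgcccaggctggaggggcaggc
Itga1 (chr13:115101965-115102214, minus strand): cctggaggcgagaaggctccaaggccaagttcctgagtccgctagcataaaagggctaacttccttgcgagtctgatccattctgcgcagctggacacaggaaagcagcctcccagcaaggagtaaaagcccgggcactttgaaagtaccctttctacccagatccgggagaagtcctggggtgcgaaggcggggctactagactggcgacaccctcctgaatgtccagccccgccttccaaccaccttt
The Itga4 window held 1 GC box and the Lama5 window held 4. In the windows of Itga2 and Itga1 these letters did not occur, which says nothing of the factor itself.

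To see which chains these cells make, levels were compared per kb of merged exon sequence. In untreated Fl/+ cultures Itgb1 was the most abundant member, at 173 CPM per kb, and its range lay apart from that of Itgb5, the next in order, at 58.5 CPM per kb. Itgb8 followed at 33.4 CPM per kb, and its range overlapped those of Itgb5 and of Itgav, at 26.1 CPM per kb. Among laminin chains Lamc1 came first at 24.1 CPM per kb, apart from Lamb2 at 17.1, and Lamb2 and Itga6 (16.3 CPM per kb) overlapped, as did Itga6 and Lama5 (12.4 CPM per kb). These genes encode the beta and alpha chains of fibronectin, vitronectin and laminin receptors and a complete laminin trimer. Itga7 stood at 7.52, Lamb1 at 5.47 and Itga5 at 4.66 CPM per kb, with overlapping ranges. By the length of the longest transcript Itgb1 and Itgb5 still led, at 185 and 63.3 CPM per kb, but Itga6 stood at 34.1 and Itga7 at 15.1, against 18.4 for Lamb2 and 12.4 for Lama5, so the place of these alpha chains in the order depends on the length used.

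At the other end, 10 of the 38 members had too few counts to be tested in any comparison, and 9 of them are described. Itgad, Itgam, Itgax and Itgb2l, which belong to leukocytes, and Itgb6, an epithelial beta chain, had at most 3 counts in any library. Itga11, a collagen receptor chain of mesenchymal cells, reached 4 counts, Itgal and Lamc3 reached 7, and Itgae reached 9. The remaining 28 members were tested in at least 1 comparison and 27 in all, Itgb7 missing from the comparison of Fl/Fl 4-OHT with untreated Fl/+ cultures.

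The first comparison, called Trrap deletion here, set Fl/Fl cultures against Fl/+ cultures of other mice, all given 4-OHT. For it, words such as fell and rose mean lower or higher in Fl/Fl cultures. Of 28 members tested, 9 were called at an adjusted p under 0.05, 4 higher and 5 lower in Fl/Fl. Across all 15036 genes tested, 31.7% were called, 16.8% higher and 15.0% lower, so the members' share of 32.1% was near the background. Their median log2 fold change was -0.02, against 0.02 for all genes tested. Leaving out the libraries of mice 36 and 39 together gave 7 members, with Lama4 and Lamb3 no longer called. Between 6 and 9 were called when single libraries were left out, and the count was 6 without Fl/Fl 27, 29 or 39.

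Itga6 (chromosome 2, 71745616 to 71858416), the alpha chain of major laminin receptors, gave the smallest adjusted p of the members. It was at 159, 161, 144, 148 and 112 CPM in Fl/+ 4-OHT cultures of mice 19, 24, 26, 35 and 36. The Fl/Fl 4-OHT cultures of mice 27, 28, 29, 37 and 39 held 53.6, 61.9, 47.7, 50.1 and 65.4 CPM. Each Fl/Fl library was below each Fl/+ library, treated or not, and untreated cultures ranged from 118 to 183 CPM. The log2 fold change was -1.37 ± 0.12 (SE), a 2.58-fold lower level, with an adjusted p of 5.5e-05. It lay between -1.52 and -1.33 over 18 alternatives, each of which kept the call.

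Itga7 (chromosome 10, 128933818 to 128958282), a laminin receptor chain best known from muscle, also fell. Its levels were 289, 196, 250, 317 and 219 CPM in Fl/+ 4-OHT and 113, 135, 113, 199 and 161 CPM in Fl/Fl 4-OHT cultures. The ranges met only where Fl/Fl 37 (199 CPM) passed Fl/+ 24 (196 CPM). The log2 fold change was -0.81 ± 0.18 with an adjusted p of 0.0058. Itga3, the other laminin-binding alpha chain, was not called: it was at 1.52 to 3.01 CPM in Fl/+ 4-OHT and at 1.62, 1.84, 2.33, 7.27 and 2.12 CPM in Fl/Fl 4-OHT cultures, the high value being Fl/Fl 37. Its log2 fold change of 0.43 turned to -0.19 without that library.

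Itga9 and Itga4, alpha chains that bind tenascin, osteopontin, Vcam1 and fibronectin variants, both fell. Itga9 was at 10.98, 6.05, 8.73, 9.88 and 12.5 CPM in Fl/+ 4-OHT and at 2.14, 3.84, 2.43, 7.08 and 3.89 CPM in Fl/Fl 4-OHT cultures. Apart from Fl/Fl 37, each Fl/Fl library lay below each Fl/+ 4-OHT library. The change was -1.30 ± 0.31 on the log2 scale with an adjusted p of 0.009. Itga4 was at 10.7, 4.91, 4.98, 8.39 and 4.62 CPM in Fl/+ 4-OHT and at 4.41, 4.25, 2.52, 3.40 and 4.41 CPM in Fl/Fl 4-OHT cultures, so the groups did not overlap but came close. For Itga4 the log2 fold change was -0.81 ± 0.27 with an adjusted p of 0.0403. That call was lost in 8 of 18 alternatives, namely with labelled sex as a covariate and without Fl/+ 4-OHT 19 or 35 or any of the Fl/Fl libraries, with adjusted p between 0.0112 and 0.0958 over the 18.

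2 integrin chains that belong to blood cells rose. Itga2b, the alpha chain of the platelet fibrinogen receptor, was at 6.02, 3.70, 3.71, 6.90 and 5.995 CPM in Fl/+ 4-OHT cultures and at 12.4, 9.76, 10.9, 18.8 and 14.9 CPM in Fl/Fl 4-OHT cultures. Itgb2, the common beta chain of leukocyte integrins, was at 0.946, 1.01, 0.751, 1.14 and 0.846 CPM and at 1.55, 3.13, 3.08, 5.06 and 2.33 CPM in the same order. For both genes each Fl/Fl library was above each Fl/+ library. The log2 fold change was 1.35 ± 0.23 for Itga2b (adjusted p = 0.0015) and 1.69 ± 0.29 for Itgb2 (adjusted p = 0.0018), and both calls stood in all alternatives run.

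The alpha chains that partner Itgb2 in leukocytes, namely Itgad, Itgal, Itgam and Itgax, stayed at 7 counts or fewer in each library. Of 8 microglia markers, 5 (Aif1, Cx3cr1, Ptprc, Tmem119 and Tyrobp) had at most 3 counts in each library. The summed level of the list was 2.10 to 2.54 CPM in untreated, 2.501 to 3.95 CPM in Fl/+ 4-OHT and 4.16 to 7.85 CPM in Fl/Fl 4-OHT libraries, most of it from Cd68. It moved with Itgb2, and its part in that result was not tested.

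Among beta chains the abundant ones were not called. Itgb1 was at 743 ± 110 CPM (SD, n = 5) in Fl/+ 4-OHT and at 736 ± 44.8 CPM in Fl/Fl 4-OHT cultures, with a log2 fold change of 0.0020 ± 0.10 (SE). The change was 0.22 ± 0.15 for Itgb5, 0.15 ± 0.14 for Itgb8 and 0.06 ± 0.27 for Itgb3, the partner of Itga2b in platelets. Itgb7, at most at 29 counts in a library, had -0.92 ± 0.61. Neither were Itga1, Itga2, Itga5, Itga8, Itga10 or Itgav called, with log2 fold changes from -0.41 to 0.10. Without Fl/Fl 37, at 38.3 CPM against 14.4 to 20.9 CPM in the other Fl/Fl libraries, Itga2 was called lower (-0.70 on the log2 scale, adjusted p = 0.00268).

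Of 9 laminin chains tested, 2 were higher and 1 was lower, a share of 33.3% beside 31.7% of all genes. Lamb2, the beta chain that replaces Lamb1 in many mature basement membranes and at synapses, was at 98.3, 116, 125, 109 and 108 CPM in Fl/+ 4-OHT and at 124, 142, 170, 210 and 166 CPM in Fl/Fl 4-OHT cultures. Fl/Fl 27 and Fl/+ 26 overlapped and the other Fl/Fl libraries were higher. The log2 fold change was 0.56 ± 0.13 with an adjusted p of 0.0068, kept in all 18 alternatives. Lamb1 itself had -0.19 ± 0.21 and was not called. Lamb3, an epithelial beta chain, was low throughout, at 0.212 to 0.475 CPM against 0.580 to 0.799 CPM (log2 fold change 0.85 ± 0.26, adjusted p = 0.0289). 7 of 17 alternatives did not call it, among them the fit without a filter on low counts and those without Fl/+ 4-OHT 26 or 36 or Fl/Fl 27, 29 or 39.

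Lama4, an alpha chain of vascular laminins, was at 11.1, 14.1, 5.49, 10.2 and 10.02 CPM in Fl/+ 4-OHT and at 7.08, 7.21, 5.67, 4.87 and 7.501 CPM in Fl/Fl 4-OHT cultures. Its log2 fold change of -0.64 ± 0.23 had an adjusted p of 0.0492, and 14 of 18 alternatives did not call it, including those that left out any single library except Fl/+ 4-OHT 26. Of 7 endothelial markers, Cdh5 and Cldn5 had at most 3 counts in each library, and the list summed to 21.7 to 63.9 CPM in Fl/+ 4-OHT and 22.4 to 48.5 CPM in Fl/Fl 4-OHT libraries. Lama5, the alpha chain of the most widespread laminins, was at 197 ± 47.1 CPM in Fl/+ 4-OHT and at 236 ± 15.7 CPM in Fl/Fl (0.27 ± 0.14 on the log2 scale, adjusted p = 0.161). It was called without Fl/+ 4-OHT 24, which at 272 CPM was the highest of its group (adjusted p = 0.014). Lama1, Lama2, Lama3 and Lamc1 had log2 fold changes of -0.24 ± 0.30, 0.55 ± 0.48, -0.64 ± 0.52 and 0.30 ± 0.15 and were not called. Over 18 alternatives the value ranged from 0.15 to 0.78 for Lama2 and from -1.30 to -0.15 for Lama3, without a call.

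**Figure D1:**
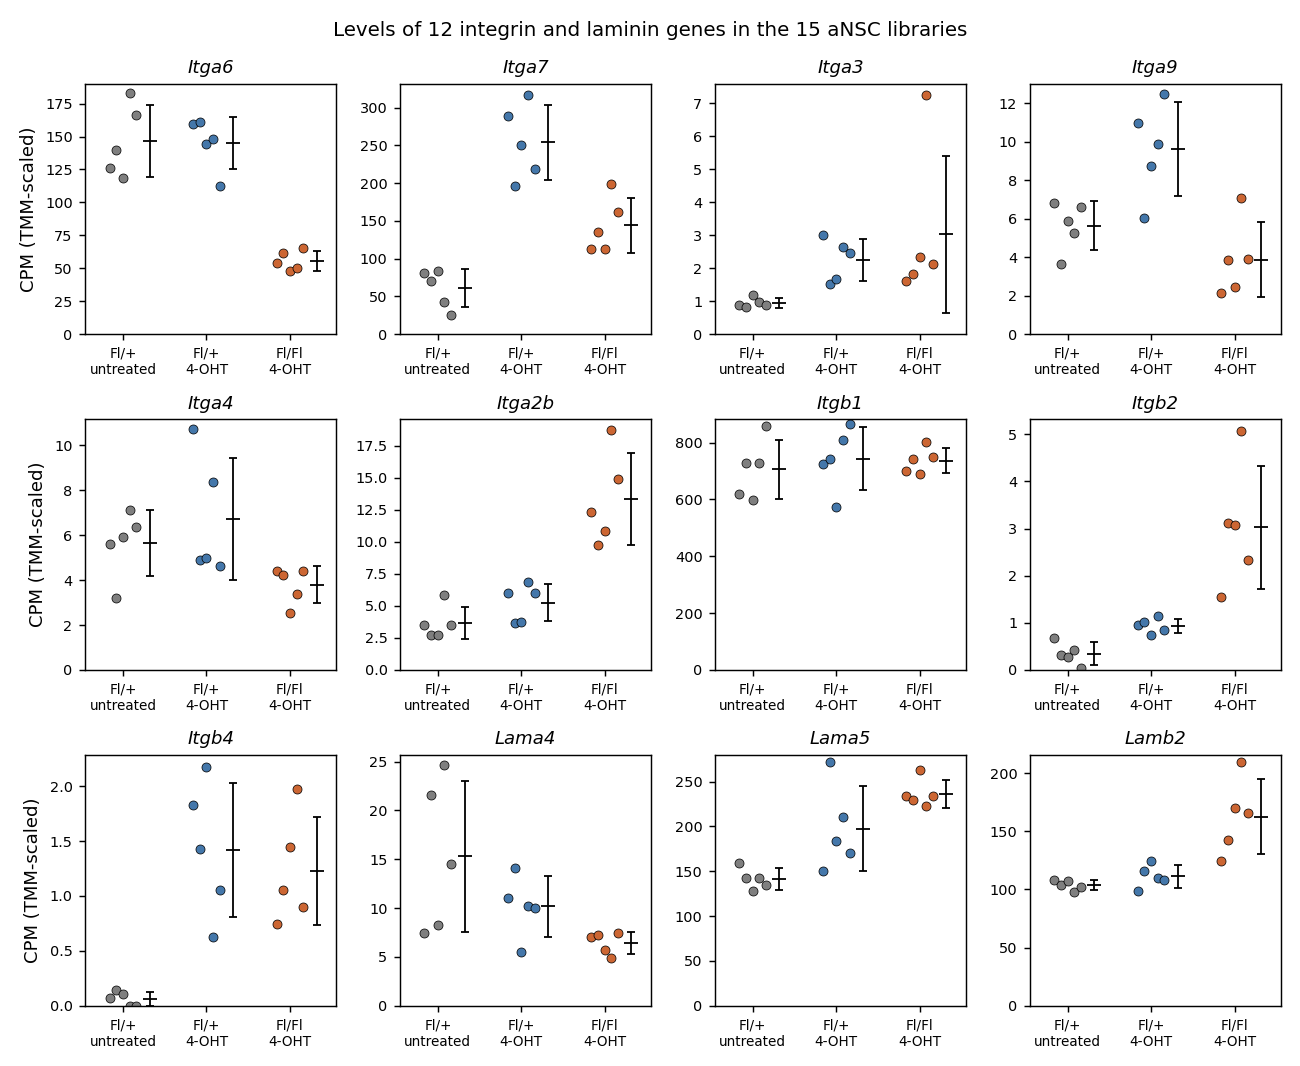
Levels of 12 members in CPM on TMM-scaled library sizes (y axis, from 0) for the 5 libraries of each group (points), with mean and SD beside them. Itga6 in Fl/Fl 4-OHT libraries lies between 47.7 and 65.4 CPM, below all Fl/+ libraries, Itga7 is highest on average in Fl/+ 4-OHT libraries, where 1 Fl/Fl library (199 CPM) passes the lowest of them (196 CPM), and Itgb1 overlaps across groups.

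What 4-OHT changed in Fl/+ cells was compared between the treated and the untreated cultures of the same 5 mice, first without pairing them. 9 of 28 members were higher after 4-OHT, 7 integrins and 2 laminin chains, and none was called lower by edgeR. Before adjustment 12 were higher and 1 lower at p under 0.05, and DESeq2 called 11 higher and 0 lower. Over all 14821 genes tested 13.8% were called, 7.34% higher and 6.45% lower, against 32.1% of the members. Scaled by library size alone, the genes called were 1396 higher and 712 lower in place of 1088 and 956. The median log2 fold change of the members was 0.50, and it was 0.65 for integrins and -0.09 for laminin chains, beside -0.01 for all genes.

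When the mouse entered as a replicate block, 13 members were higher, 11 of them integrins, and 1 lower, and the number of all genes called was 3809 in place of 2044. The added members were Itga2b, Itga5, Itga8 and Itgb2, higher, and Lamb1, lower, with blocked adjusted p of 0.0366, 0.0359, 0.0273, 0.0261 and 0.0136. Without the libraries of mouse 36 the count was 5, with Itga8 called and Itga2, Itga9, Itgav, Lama3 and Lama5 not. It was also 5 without Fl/+ untreated 26 and without Fl/+ 4-OHT 19.

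Itga7 was among the members with the clearest rise. Untreated cultures of mice 19, 24, 26, 35 and 36 held 81.1, 70.2, 84.2, 42.9 and 26.0 CPM, and the 4-OHT cultures of the same mice held 289, 196, 250, 317 and 219 CPM. Each treated library was above each untreated library. The log2 fold change was 2.06 ± 0.29, a 4.18-fold higher level, with an adjusted p of 0.0016. Itga6 did not follow, at 126, 140, 118, 183 and 166 CPM before and 159, 161, 144, 148 and 112 CPM with 4-OHT (log2 fold change -0.02 ± 0.14, adjusted p = 0.957). Itga3 rose from 0.837 to 1.19 CPM in untreated libraries to 1.52 to 3.01 CPM (log2 fold change 1.25 ± 0.24, adjusted p = 0.0068).

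The collagen-binding chains Itga1 and Itga2, whose genes lie 20995 bases apart on chromosome 13 and whose promoters are printed above, both rose. Itga1 went from 7.42, 7.39, 4.62, 7.04 and 9.61 CPM to 17.8, 16.1, 9.40, 21.0 and 24.5 CPM in mice 19, 24, 26, 35 and 36. Itga2 went from 10.7, 20.4, 12.3, 2.96 and 6.81 CPM to 32.1, 33.8, 26.2, 29.1 and 30.5 CPM in the same mice. Both were higher in 5 of 5 mice, and the Itga2 groups did not overlap. Their log2 fold changes were 1.30 ± 0.26 (adjusted p = 0.0079) and 1.51 ± 0.38 (adjusted p = 0.0239), the second lost without the untreated or the 4-OHT library of mouse 19 or without both libraries of mouse 36 (adjusted p up to 0.0693 over the alternatives). Itga10, a cartilage collagen receptor chain, was at 0.741 ± 0.296 and 1.06 ± 0.303 CPM and was not called.

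Itgb4, the beta chain that joins Itga6 in hemidesmosomes, had 0 to 4 counts in untreated and 18 to 55 counts in Fl/+ 4-OHT libraries. In CPM these were 0.0724, 0.140, 0.105, 0 and 0 against 1.83, 1.42, 2.17, 0.624 and 1.06. The groups lay apart, and the adjusted p was 0.0014. The fitted log2 fold change of 4.36 ± 0.60 depends on the prior count, since untreated levels were near the floor. The chain stayed far below Itgb1 after 4-OHT, at 0.203 against 182 CPM per kb.

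Itgav, the alpha chain of vitronectin receptors and of receptors that activate Tgfb, rose by less, from 249, 215, 224, 379 and 333 CPM to 424, 416, 368, 466 and 444 CPM (log2 fold change 0.60 ± 0.16, adjusted p = 0.0299). Itga9 went from 5.63 ± 1.28 to 9.62 ± 2.43 CPM (log2 fold change 0.77 ± 0.23, adjusted p = 0.0434). These calls were lost in 8 and 11 of 19 alternatives, with adjusted p up to 0.0706 for Itgav and 0.0989 for Itga9. Leaving out any single library ended the call for Itgav except untreated 35 or 36 or 4-OHT 26, and for Itga9 except untreated 36 or 4-OHT 24. Both genes were higher in 5 of 5 mice, and both kept the call with the mouse as a block, at adjusted p of 0.0042 and 0.0039.

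The fibronectin receptor chain Itga5 was higher in 4 of 5 mice and Itga8, a nephronectin receptor chain, in 5 of 5, with log2 fold changes of 0.72 ± 0.26 and 0.99 ± 0.39. Itgb2 had 1.43 ± 0.45 (adjusted p = 0.0559), and each treated library was above each untreated library. Of the alternatives, 7 of 18 called Itgb2 higher, and 4 of 19 called Itga5 and 4 of 19 Itga8. The abundant beta chains Itgb1, Itgb5 and Itgb8 had 0.08 ± 0.13, -0.24 ± 0.16 and -0.11 ± 0.24 and were not called. Itga4, Itgb3 and Itgb7 had 0.26 ± 0.29, -0.28 ± 0.27 and 0.65 ± 0.61.

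Among laminin chains Lama3 and Lama5 rose. Lama3, an epithelial alpha chain, was at 0.651, 1.78, 0.245, 0.654 and 0.442 CPM untreated and at 2.501, 6.20, 2.05, 1.98 and 1.55 CPM with 4-OHT, with mouse 24 highest in both groups. It was higher in 5 of 5 mice (log2 fold change 1.92 ± 0.53, adjusted p = 0.0357). 8 of 18 alternatives did not call Lama3, with adjusted p up to 0.0822, namely those without untreated 19, 26, 35 or 36 or without 4-OHT 19, 24 or 35, and that without both libraries of mouse 36. Lama5 was at 159, 143, 128, 142 and 135 CPM untreated and at 151, 272, 183, 211 and 170 CPM with 4-OHT, so mouse 19 went against the other 4. Its log2 fold change of 0.48 ± 0.14 had an adjusted p of 0.0474, and 11 of 19 alternatives did not call it (adjusted p up to 0.103), among them DESeq2 size factors and leaving out any library except 4-OHT 19 or 36.

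Lamb1 was lower with 4-OHT in 5 of 5 mice, at 56.6, 48.8, 45.1, 65.4 and 55.4 CPM untreated and 28.1, 40.5, 31.7, 56.4 and 33.3 CPM treated. It passed the threshold only with the mouse as a block or without 4-OHT 35 (unblocked log2 fold change -0.51 ± 0.18, adjusted p = 0.0845). Lama1, Lama2, Lama4, Lamb2, Lamb3 and Lamc1 were not called, with log2 fold changes from -0.58 to 0.10.

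Markers of the oligodendrocyte lineage moved with 4-OHT as well. edgeR called 6 of 9 higher and none lower, beside 7.34% of all genes higher and 6.45% lower. Before adjustment p was under 0.05 for 7 higher and 1 lower, and the fit with the mouse as a block gave 6 higher and 1 lower. Among those higher was Sox10, whose median was 15.1 CPM untreated and 98.8 CPM with 4-OHT. The summed level of that list was 2583 to 3657 CPM untreated and 2603 to 3650 CPM with 4-OHT, most of it from Olig1, whose median was 2365 CPM untreated and 1847 CPM with 4-OHT. After 4-OHT 1 of 7 astrocyte markers was higher and 3 lower, and 2 of 10 neural stem cell markers were higher and 3 lower. Of 2 tested endothelial markers 1 was higher. edgeR called none of 7 neuron, 3 ependymal and choroid plexus, 5 mural and fibroblast and 1 microglia markers tested. With the mouse as a block 3 neuron markers were lower and 1 mural and fibroblast marker was higher. The part of these shifts in the integrin result was not tested.

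Fl/Fl 4-OHT cultures were also set directly against untreated Fl/+ cultures, from which genotype and 4-OHT both separate them. 13 of 27 members were called, 10 higher and 3 lower (48.1%), where 30.7% of all 15032 genes tested were called, 15.7% higher and 15.1% lower. Scaling by library size alone split the called genes into 3150 higher and 1603 lower, instead of 2357 and 2263. The members' median log2 fold change was 0.60, against 0.0025 for all genes. DESeq2 called 13 members higher and 3 lower. Markers of cell types moved in this comparison as well. Of 9 oligodendrocyte lineage markers 6 were higher and 1 lower (median log2 fold change 1.72), 5 of 7 neuron markers were lower (median -1.12) and 5 of 10 neural stem cell markers were lower (median -0.32). Of 7 astrocyte markers 1 was higher and 3 lower, and of 3 tested ependymal and choroid plexus markers 2 were higher (median 1.33). The part of these markers in the members' result was not tested. As the comparisons share libraries, their values are only set side by side.

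Itga6 was lower by the same order as between the 4-OHT groups (log2 fold change -1.38 ± 0.13, adjusted p = 8.8e-05). Itga7, which rose with 4-OHT and was lower in Fl/Fl than in Fl/+ 4-OHT cultures, stayed above the untreated level (1.25 ± 0.30, adjusted p = 0.0088). Itga9, with changes of 0.77 and -1.30 in the other comparisons, had -0.53 ± 0.32 and was not called (adjusted p = 0.23). It was called lower without Fl/Fl 37, with -0.86 and an adjusted p of 0.0337. Itga2b, Itga3 and Itga1 were higher, with 1.88 ± 0.25, 1.68 ± 0.42 and 1.26 ± 0.29. Without Fl/Fl 37, Itga3 had 1.07 and Itga1 had 0.96, and both were still called.

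Itgb2 went from 0.688, 0.314, 0.280, 0.423 and 0.0368 CPM in untreated libraries to 1.55 to 5.06 CPM, a log2 fold change of 3.12 ± 0.51 (adjusted p = 0.0013). Itgb4 had 4.16 ± 0.58 (adjusted p = 5.8e-04). Itgav and Itga5 were higher by 0.61 ± 0.16 and 0.82 ± 0.24. The Itga5 call was lost in 3 of 18 alternatives, namely without untreated 26, without Fl/Fl 37 and without the libraries of mice 36 and 39 (adjusted p up to 0.0749). Itga2, Itga8 and Itga4 had 1.10 ± 0.43, 0.95 ± 0.38 and -0.56 ± 0.24 and were not called by edgeR. Of 18 alternatives 4 called Itga2 and 3 called Itga8, DESeq2 being among them in both cases, and 1 called Itga4. Itgb1 had 0.07 ± 0.11, Itgb5 -0.02 ± 0.15, Itgb8 0.04 ± 0.23, Itgb3 -0.23 ± 0.22 and Itga10 0.22 ± 0.32.

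For laminin chains this comparison gave 4 calls of 9, 2 higher and 2 lower (44.4%, beside 30.7% of all genes). Lama5 was at 128 to 159 CPM untreated and at 234, 229, 263, 222 and 233 CPM in Fl/Fl 4-OHT cultures, with no overlap (log2 fold change 0.76 ± 0.08, adjusted p = 1.4e-04). Lamb2 was also apart, at 97.7 to 108 CPM against 124 to 210 CPM (0.66 ± 0.12, adjusted p = 0.0027). Lamb1 was lower in each Fl/Fl library, at 24.8 to 42.5 CPM against 45.1 to 65.4 CPM (-0.71 ± 0.16, adjusted p = 0.0071). Lama4 was lower by a log2 fold change of -1.22 ± 0.32 (adjusted p = 0.015), with untreated libraries spread from 7.45 to 24.7 CPM. Lama1, Lama2, Lama3, Lamb3 and Lamc1 were not called. Lama3 had a log2 fold change of 1.27 ± 0.59, from 0.63 to 1.87 over 17 alternatives. Of these, 1 called it higher, that without untreated 24 (adjusted p = 0.0325).

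**Figure D2:**
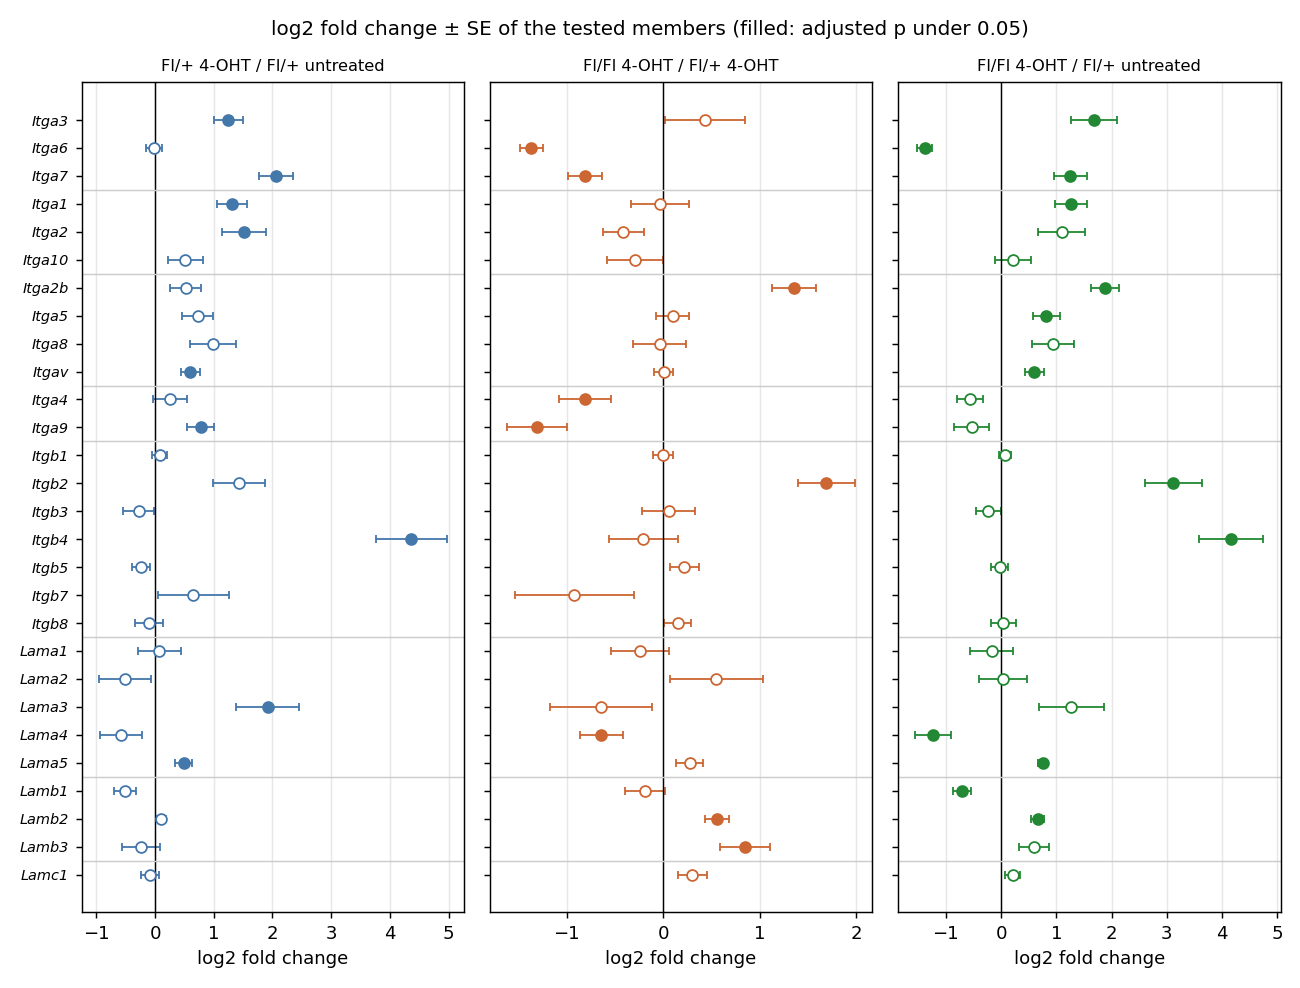
log2 fold change with SE (x axis) of each tested member, grouped by role, in the 3 comparisons (panels, with their own scales). Filled points had an adjusted p under 0.05, and Itga7 lies at 2.06, -0.81 and 1.25 from left to right while Itga6 lies at -0.02, -1.37 and -1.38.

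The make-up of each chain family was taken as shares of the family's summed CPM per kb and is described without a test. Shares moved among integrin alpha, laminin alpha and laminin beta chains, and those of the leading integrin beta and laminin gamma chains stayed close. Itga6 made up 27.5% ± 2.8 (SD, n = 5) of alpha chain RNA in untreated Fl/+, 15.5% ± 2.2 in Fl/+ 4-OHT and 7.86% ± 1.4 in Fl/Fl 4-OHT cultures. Itga7 made up 13.2% ± 6.3, 30.1% ± 4.0 and 22.0% ± 1.7. The ratio of Itga7 to Itga6 per kb ranged from 0.174 to 0.793 in untreated, from 1.35 to 2.39 in Fl/+ 4-OHT and from 2.35 to 4.43 in Fl/Fl 4-OHT libraries. Thus the order of these laminin receptor chains was opposite in untreated and treated libraries. Itgav, at 43.8%, 38.1% and 49.3%, had the highest mean share per kb of merged exons.

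The sum over alpha chains was 58.9 ± 5.87, 104 ± 9.61 and 80.1 ± 14.0 CPM per kb in the same order of groups. The sum over beta chains was 265 ± 33.6, 264 ± 22.9 and 273 ± 14.9 CPM per kb, of which Itgb1 held 65.2%, 68.8% and 66.1%. Lama5 took 78.6%, 83.8% and 88.9% of laminin alpha chain RNA, and Lamb2 took 75.5%, 82.6% and 88.3% of laminin beta chain RNA. Lamb2 exceeded Lamb1 per kb by 2.44 to 3.89 times untreated, 3.17 to 6.43 times in Fl/+ 4-OHT and 4.78 to 11.04 times in Fl/Fl 4-OHT libraries. Lamc1 held 99.9%, 99.8% and 99.7% of gamma chain RNA on average. With the length of the longest transcript in place of merged exons, Itga6 held 34.0%, 19.1% and 10.2% and Itga7 15.7%, 35.6% and 27.5%, so the directions stayed for both. Itgav then held 39.4%, 34.1% and 46.6%, below Itga7 in Fl/+ 4-OHT cultures. The ratio of Lamb2 to Lamb1 was lower by that length, at 1.54 to 2.45, 2.00 to 4.05 and 3.01 to 6.96 in the same order of groups.

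**Figure D3:**
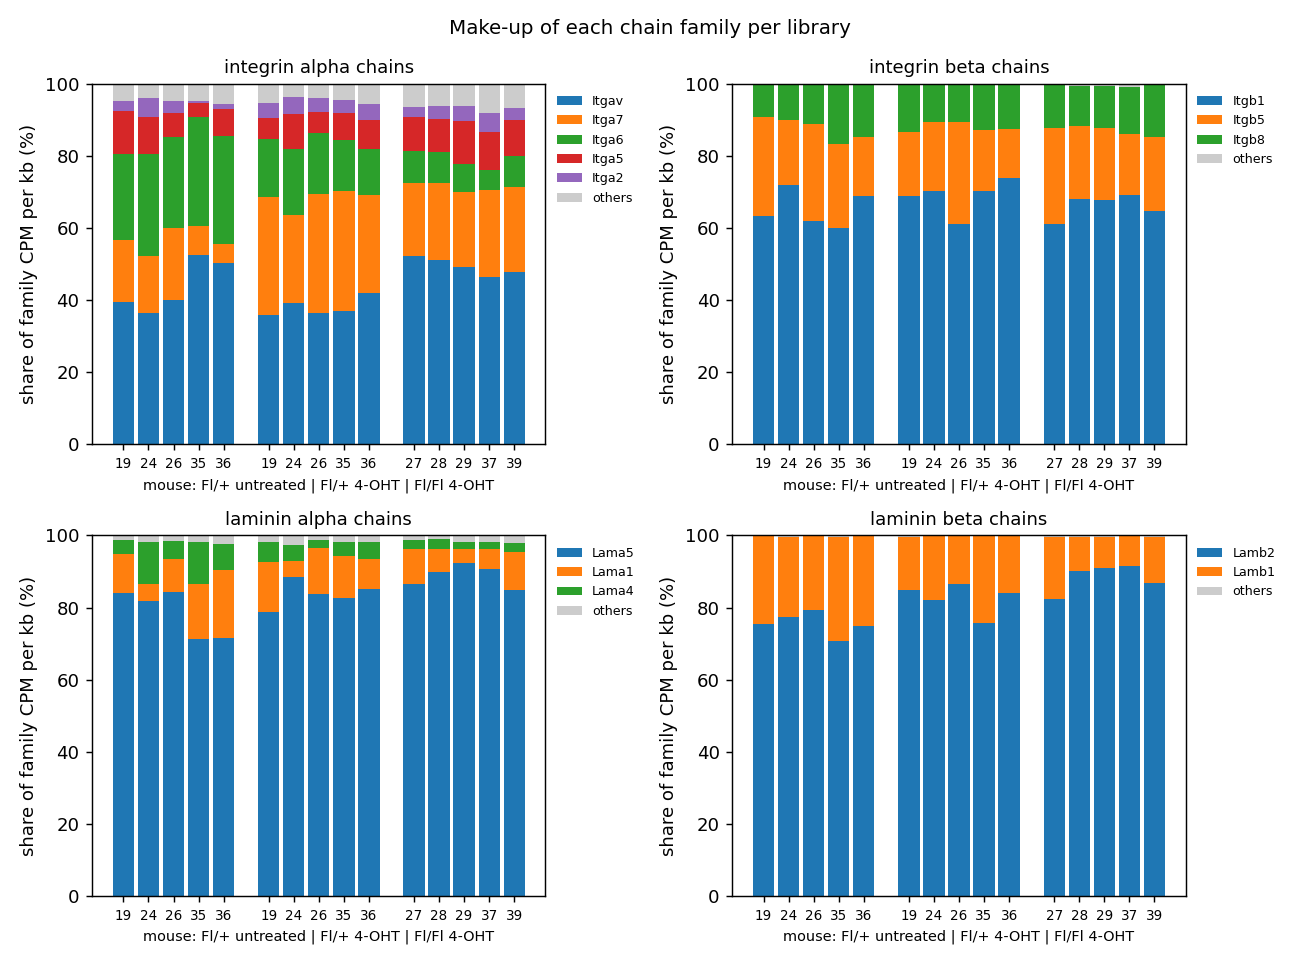
Share of each chain in its family's summed CPM per kb (y axis, percent) for each library (bars, labelled by mouse, in the order Fl/+ untreated, Fl/+ 4-OHT, Fl/Fl 4-OHT). The Itga6 share falls on average from 27.5% to 7.86% across the groups, and Lamb2 grows from 75.5% to 88.3% of beta chain RNA.

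The proteins around integrins and laminins were followed with 6 gene lists. Their counts are to be read beside the 31.7%, 13.8% and 30.7% of all genes called after Trrap deletion, after 4-OHT and in the third comparison. After deletion the lists had 12.5% to 41.7% of their tested genes called, and nothing particular to a list is read from these shares. Of 13 tested genes of integrin activation, 2 were higher and 3 lower after Trrap deletion (38.5%, median log2 fold change -0.05). The named ones were Dok1 and Flna, whose products bind beta chain tails, at -0.68 ± 0.20 and -0.64 ± 0.16, and Sharpin, an inhibitor of activation, at 0.34 ± 0.09. The Dok1 call was lost in 3 of 18 alternatives and the Sharpin call in 2, with adjusted p up to 0.0767 and 0.0891. In untreated Fl/+, Fl/+ 4-OHT and Fl/Fl 4-OHT cultures Dok1 was at 4.90, 3.77 and 2.32 CPM on average. Flna was at 226, 306 and 194 CPM and Sharpin at 37.6, 30.3 and 37.9 CPM. After 4-OHT edgeR called 0 of 13, where p before adjustment was under 0.05 for 2 higher and 1 lower, DESeq2 called 1 higher and the fit with the mouse as a block 2 higher. Fl/Fl 4-OHT against untreated Fl/+ cultures gave 1 higher and 2 lower (23.1%).

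Of 18 genes of cytoplasmic signalling, 2 rose and 5 fell after Trrap deletion (38.9%). Bcar1, a docking protein for focal adhesion kinases, rose by 0.50 ± 0.13, while Lims1, a partner of integrin-linked kinase, fell by 0.48 on the log2 scale and Tns1, a tensin that ties beta chains to actin, by 0.66. The Tns1 call was lost in 9 of 18 alternatives. In untreated Fl/+, Fl/+ 4-OHT and Fl/Fl 4-OHT cultures Tns1 was at 63.3, 97.1 and 61.1 CPM on average. Bcar1 was at 70.1, 79.3 and 111 CPM and Lims1 at 146, 132 and 93.6 CPM. After 4-OHT 4 rose and 1 fell (27.8%), and 7 rose and 1 fell with the mouse as a block. Ptk2b, a kinase related to focal adhesion kinase, went from 1.63 ± 1.14 to 13.6 ± 2.47 CPM (log2 fold change 3.06 ± 0.42, adjusted p = 0.0014), and Tns2 had -1.03 ± 0.27, a call lost in 6 of 19 alternatives (adjusted p up to 0.0738). Against untreated cultures Fl/Fl 4-OHT cultures had 3 higher and 3 lower (33.3%).

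Tetraspanins and Cd47, which sit beside integrins in the membrane, gave 1 call of 8 (12.5%) after deletion, the tetraspanin Cd82 (0.85 ± 0.20), and 1 after 4-OHT, Slc3a2, the heavy chain of an amino acid transporter that binds beta chains (-0.55 ± 0.12). The Cd82 call was lost in the fit of all 15 libraries (adjusted p = 0.099), and with the mouse as a block 2 genes were higher and 1 lower after 4-OHT. No gene of this list was called by edgeR in the third comparison, with 2 higher at an unadjusted p under 0.05 and 1 by DESeq2. Among 12 other laminin receptors, 2 were higher and 3 lower after deletion (41.7%). Dag1, the precursor of dystroglycan, went from 666 ± 75.3 to 995 ± 98.6 CPM (0.59 ± 0.10, adjusted p = 0.0016), and Sgcb of its sarcoglycan complex from 90.3 ± 12.2 to 131 ± 15.4 CPM (0.55 ± 0.11). The syndecan Sdc1 had -0.59 ± 0.18 after deletion, a call lost in 6 of 18 alternatives (adjusted p up to 0.0741). After 4-OHT it had 0.89 ± 0.21 and was the only gene of the list called by edgeR (8.33%), where the fit with the mouse as a block called 2 higher. In the third comparison 2 were higher and 2 lower (33.3%).

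Basement membrane partners of laminin, such as collagen IV, nidogen and perlecan, gave 0 higher and 3 lower of 12 (25.0%) after deletion by edgeR, and 1 higher at an unadjusted p under 0.05 and 2 higher by DESeq2. Those lower were Pxdn, which crosslinks collagen IV (-0.48 ± 0.14), Agrn, the proteoglycan agrin (-0.38 ± 0.09), and the netrin Ntn4 (-0.36 ± 0.11). The Pxdn call was lost in 5 of 18 alternatives (adjusted p up to 0.101) and the Ntn4 call in 2 (up to 0.0766). In untreated Fl/+, Fl/+ 4-OHT and Fl/Fl 4-OHT cultures Pxdn was at 68.9, 89.0 and 63.0 CPM on average. Agrn was at 458, 359 and 273 CPM and Ntn4 at 86.6, 81.5 and 63.0 CPM. After 4-OHT 4 were higher and 1 lower (41.7%), and 6 higher and 2 lower with the mouse as a block. Col18a1, the precursor of endostatin, went from 3.78 ± 2.40 to 72.7 ± 25.5 CPM (log2 fold change 4.26 ± 0.42, adjusted p = 3.2e-04) and stood at 59.5 ± 24.6 CPM with Fl/Fl 4-OHT. Col4a5, a collagen IV chain, went from 99.0 ± 14.2 to 212 ± 25.4 CPM (1.10 ± 0.12). Against untreated cultures 4 were higher and 2 lower in Fl/Fl 4-OHT cultures (6 of 12).

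Other integrin ligands numbered 19 tested genes. After deletion 4 were higher and 1 lower (26.3%), among them Thbs1, a thrombospondin (1.77 ± 0.36), Reln, the secreted guidance protein reelin (1.62 ± 0.37), and Vwf, the platelet-binding von Willebrand factor (0.97 ± 0.27). In untreated Fl/+, Fl/+ 4-OHT and Fl/Fl 4-OHT cultures Thbs1 was at 5.87, 1.80 and 6.10 CPM on average. Reln was at 24.2, 7.84 and 23.9 CPM and Vwf at 1.80, 1.84 and 3.59 CPM. Thbs1 and Reln in Fl/Fl 4-OHT cultures were thus near their untreated Fl/+ levels. After 4-OHT 7 were higher and 4 lower (57.9%), led by Thbs2 (2.92 ± 0.66) and by Icam1, a ligand of Itgb2 integrins (2.91 ± 0.50). Thbs2 was no longer called in 1 of 19 alternatives. In the third comparison 7 were higher and 2 lower (47.4%), and the list's median log2 fold change was 0.70.

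**Figure D4:**
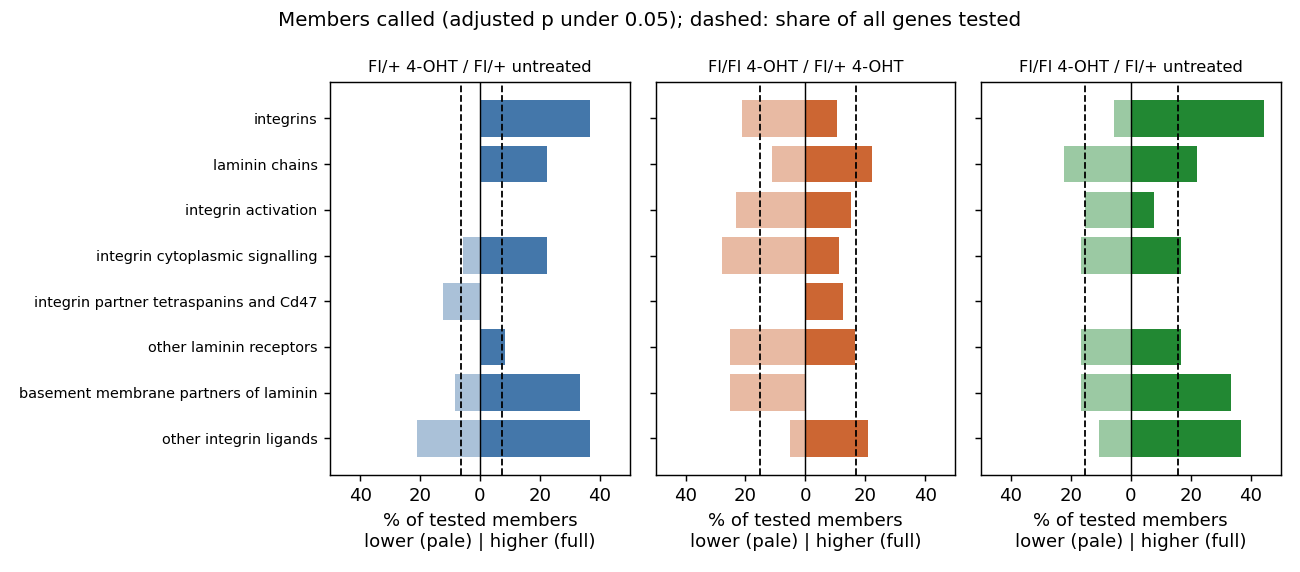
Percent of tested genes called higher (full bars, right of 0) and lower (pale bars, left of 0) for the integrins, the laminin chains and 6 gene lists in the 3 comparisons. Dashed lines mark the share of all genes called in each direction, and in the first panel integrins reach 36.8% higher where the background is 7.34%.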

How the data were processed

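The 15 aNSC cultures were profiled by stranded RNA-seq of poly(A) RNA. Per the labels and the study's methods, the authors aligned single-end reads to GRCm38 with STAR 2.5.4b and counted uniquely mapped reads per Ensembl gene with featureCounts 1.5.0. The deposited values are raw counts, with no normalization; reads shared by near-identical copies were left out by that counting. Symbols, coordinates and exon lengths came from GENCODE M21, which matched 53620 of 53801 genes.

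Each comparison was fitted on its own 10 libraries with edgeR 4.0.16 (R 4.3.3): filterByExpr with a minimum count of 10, TMM, the quasi-likelihood F test without covariates and Benjamini-Hochberg adjustment over all genes tested, called under 0.05. SE of a log2 fold change was derived as its absolute value divided by the square root of the F statistic of its test. The smallest p the permutation test of Trrap allows is 0.00794. The labels name separate mice, so replicates are cultures of different animals. The 4-OHT dose is left out because labels and methods disagree on it, as they do on the length of exposure.

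Deviations from group means correlated between both cultures of a mouse with r of 0.204 to 0.606 over 14821 genes. Between cultures of different mice r was -0.514 to 0.339. The lowest r within a mouse was that of mouse 19, close to the 0.189 of untreated 19 with 4-OHT 26. The mouse number, which pairs the cultures by label, served as a replicate block in 1 of the alternatives. The other alternatives were DESeq2 1.42.0, its size factors in edgeR, library size alone, no filter, at least 10 counts in every library, all 15 libraries in 1 fit, labelled sex as a covariate, and each library left out. Leaving out the libraries of mice 36 and 39 was added after seeing the data. The members are named, except 1 that is not reported here, and from each pathway list up to 3 called genes of largest change after deletion and up to 2 after 4-OHT; Sox10, Olig1, Cd68 and the markers at the floor were picked once their values had been seen. The members, the pathway lists and the marker lists were chosen with earlier results of these data known. The scripts were tested on simulated data. Figures were drawn with matplotlib.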

Additional observations from a re-analysis of the deposited data

Results flagged for a closer look

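A sample far from the other 4 of its group was found in 9 of 84 groups of member values (28 members in 3 groups). The rule was Dixon's gap over range, with a critical value of 0.71. Its rate of about 5% assumes independent normal values. These groups of CPM values share libraries, so 9 of 84 is not read against that rate. In Fl/Fl 4-OHT cultures, mouse 37 was highest for Itga2 (38.3 CPM, next 20.9 CPM) and Itga3 (7.27 CPM, next 2.33 CPM). In the same group mouse 29 was highest for Lama3 (4.39 CPM, next 1.78 CPM) and Lama5 (263 CPM, next 234 CPM), and mouse 39 for Lamc1 (301 CPM, next 223 CPM). Mouse 24 was highest for Lama3 in both Fl/+ groups, at 1.78 CPM untreated (next 0.654 CPM) and 6.20 CPM with 4-OHT (next 2.501 CPM), and for Itga10 in untreated cultures (1.26 CPM, next 0.700 CPM). Mouse 35 was highest for Itga2b in untreated cultures (5.85 CPM, next 3.51 CPM).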

How the results depend on the processing

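Levels of members under about 1 CPM rest on few counts, and the 5 cultures of a group differ in sex and carry the doubts on sex labels given above. In the Trrap deletion comparison 437 of 502 member values kept their direction and their side of the threshold, in the 4-OHT comparison 455 of 527 and in the third 451 of 482. The replicate block by mouse number gave 3809 genes in place of 2044 and 14 members in place of 9 for 4-OHT. It also moved the counts of integrins and of 5 gene lists by over 1.5 times, as given above, and that of other integrin ligands by less. Without the libraries of mouse 36, 5 members were called there. Leaving out 1 library gave 1271 to 2522 genes (lowest without 4-OHT 19, and 1311 without 4-OHT 35) and 5 to 9 members. The remaining counts of genes and of members stayed within 1.5 times the main ones under the other alternatives run.

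Each value that changed sign belonged to a member that was not called. After Trrap deletion, Itga1 was 0.12 without mice 36 and 39. Itgav was -0.0053 by DESeq2, -0.0030 with DESeq2 size factors and -0.0056 in the fit of all libraries, and Itgb1 was -0.0125, -0.0100 and -0.0132 in the same order and -0.0039 without a filter. With 1 library left out, the log2 fold change ranged from -0.35 to 0.10 for Itga1, -0.19 to 0.59 for Itga3, -0.0248 to 0.19 for Itga5, -0.16 to 0.17 for Itga8, -0.078 to 0.0532 for Itgav, -0.0886 to 0.046 for Itgb1 and -0.10 to 0.18 for Itgb3. After 4-OHT, Itga6 was 0.11 without mouse 36, 0.0412 with library size alone and 0.0002 with at least 10 counts in every library. With 1 library left out it ranged from -0.0852 to 0.0766, Itgb8 from -0.23 to 0.0744, Lama1 from -0.13 to 0.32 and Lamc1 from -0.15 to 0.0018. In the third comparison Itgb5 was 0.074 with library size alone, and Lama2 was -0.08 without mice 36 and 39 and -0.0292 with labelled sex. The ranges with 1 library left out were -0.14 to 0.0444 for Itgb5, -0.085 to 0.21 for Itgb8, -0.38 to 0.0843 for Lama1 and -0.36 to 0.31 for Lama2. The causes were not tested.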

Other observations

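Markers of other cell types gave these values beside the integrin and laminin results. Astrocyte markers summed to 5556 to 7347 CPM in untreated Fl/+, 5428 to 7000 CPM in Fl/+ 4-OHT and 4910 to 8850 CPM in Fl/Fl 4-OHT libraries. Of 7 astrocyte markers 1 was higher and 3 lower after 4-OHT (57.1%, beside 13.8% of all genes). edgeR called 0 of them after Trrap deletion. Neuron markers summed to 867 to 1149, 848 to 1030 and 606 to 846 CPM in the same order of groups. After deletion 1 of 7 neuron markers was higher and 2 were lower (42.9%, beside 31.7% of all genes). Of 10 neural stem cell markers, 4 were lower after deletion, where 15.0% of all genes were, and 2 were higher and 3 lower after 4-OHT, beside 7.34% and 6.45% of all genes.

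Ependymal and choroid plexus markers, which include Foxj1, the master regulator of motile cilia, summed to 28.9 to 63.8, 40.5 to 93.1 and 74.7 to 98.6 CPM, while Ttr and Tmem212 had at most 3 counts in each library. Mural and fibroblast markers summed to 3.57 to 19.0, 7.19 to 20.2 and 9.63 to 31.4 CPM, and Dcn and Lum had at most 3 counts in each library. Endothelial markers summed to 13.3 to 26.2 CPM in untreated libraries.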
